A study of Mus musculus with 4 samples.

Results

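Integrins are the cell's receptors for extracellular matrix, and laminins are the trimeric proteins that form the backbone of basement membranes. The genes described here were all those of the count tables with a symbol of an integrin alpha chain, an integrin beta chain or a laminin alpha, beta or gamma chain, 35 of the 32285 genes listed. They were 16 integrin alpha chains, 8 integrin beta chains, 5 laminin alpha chains, 3 laminin beta chains and 3 laminin gamma chains. They were chosen by name and not by a cutoff on a measured value, with earlier results of these data known. The data were single cell RNA sequencing libraries of E10.5 mouse hearts, the stage of cardiac trabeculation. Libraries 5 and 7 were controls carrying floxed *Tie2* without Cre (Tie2flfl), and libraries 6 and 8 were *Tie2-cko* hearts (Nfatc1Cre;Tie2 f/f). *Nfatc1Cre* is active in the endocardium, the cushion endocardium included, and not in the peripheral vasculature, so that both genotypes share the floxed allele and some cells can keep TIE2. Hearts were dissected with the whole cardiogenic region, with 2 libraries for each genotype, and all p-values measure the spread between these libraries.

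An integrin is a pair of 1 alpha and 1 beta chain. *Itgb1* pairs with the largest set of alpha chains, among them the collagen receptors (*Itga1*, *Itga2*, *Itga10*, *Itga11*), the laminin receptors (*Itga3*, *Itga6*, *Itga7*) and receptors for fibronectin (*Itga4*, *Itga5*, *Itga8*, *Itgav*). *Itgb2* with *Itgal*, *Itgam* or *Itgax* forms the receptors of leukocytes, and *Itga2b* with *Itgb3* forms the fibrinogen receptor of platelets. A laminin joins 1 alpha, 1 beta and 1 gamma chain, and its alpha chain sets which integrins it binds. In the embryonic heart, a matrix called the cardiac jelly lies between the endocardium and the myocardium, and *Itga4* is known for holding the epicardium onto the myocardium.

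After filtering, 33419 cells remained, between 5684 and 10097 for each library, with median depths of 14878 to 25875 unique molecular identifiers (UMIs, each a captured RNA molecule). Cells were grouped by clustering without the 9 members that were among the variable genes, and a cluster was named where it carried the markers of a cell type; each name is to be read as "-like". Chamber endocardial cells (EdCs) were led by genes that included *Emcn*, *Npr3* and *Gpr182*, cushion EdCs by genes that included *Wnt4* and *Nfatc1*, vascular-like endothelial cells (ECs) by *Cldn5* and *Sox17*, and epicardial cells by *Upk3b*, *Upk1b* and *Tbx18*. Cardiomyocytes (CMs) made 6 clusters, and mesenchymal cells (MCs) of the cushions made 3. The other 5 clusters stayed unnamed, 4 with a share of at most 0.5 of the markers of any list and 1, led by *Dkk2* and *Ndnf*, with 0.75 of the MC markers but little *Postn*, and 3 clusters of low UMI count were left out. The share of cells in EdCs, CMs, MCs and epicardial cells was 47.1% and 37.4% in libraries 5 and 6, against 75.2% and 77.5% in libraries 7 and 8, so that the first pair held more cells of other kinds. Between 29 and 62 cell barcodes were shared by any 2 libraries, at most 0.521% of the smaller one.

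*Tek*, the gene of TIE2, was low in the endocardium of both *Tie2-cko* libraries. Levels are means over cells of the UMIs of a gene for each 10000 UMIs. In chamber EdCs the controls (libraries 5 and 7) had 0.887 and 1.01 and the *Tie2-cko* libraries (6 and 8) had 0.128 and 0.147. In vascular-like ECs the levels were 0.626 and 0.776 in the controls and 0.774 and 0.68 in *Tie2-cko*. By edgeR's quasi-likelihood test the log2 fold change of *Tek* was -2.56 (SE 0.19) in chamber EdCs and -2.45 (SE 0.27) in cushion EdCs, with adjusted p of 0.0115 and 0.0289, and -0.15 (SE 0.29) in vascular-like ECs. In cushion EdCs the adjusted p was 0.106 when the members were kept among the genes used for clustering. MCs had 0.154 and 0.28 in controls and 0.0427 and 0.0329 in *Tie2-cko*, a log2 fold change of -2.23 with an adjusted p of 0.641 that passed with DESeq2. UMIs are counted near an end of the transcript and need not lie in the deleted part of the gene. All levels below are in the same unit.

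The members gave 423870 UMIs in the cells kept, 335763 of integrins and 88107 of laminins, and none of the 35 was without UMIs. They differed widely in where they were found. Of the 35 members, 6 reached a mean level over 1 UMI per 10000 in some named cell type (*Itga1*, *Itga2b*, *Itga4*, *Itga6*, *Itgb1* and *Itgb3*), 8 peaked between 0.3 and 1 (*Itga5*, *Itga9*, *Itgav*, *Itgb2*, *Itgb5*, *Lama4*, *Lamb1* and *Lamc1*) and 12 between 0.05 and 0.3. The last 9 (*Itga7*, *Itga10*, *Itga11*, *Itgax*, *Itgb6*, *Itgb7*, *Lama3*, *Lamb3* and *Lamc3*) stayed under 0.05 in every named type. Cell types were defined by other genes of the same cells, so the differences between cell types are given as a description, with the spread over libraries and without a test.

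**Figure D1:**
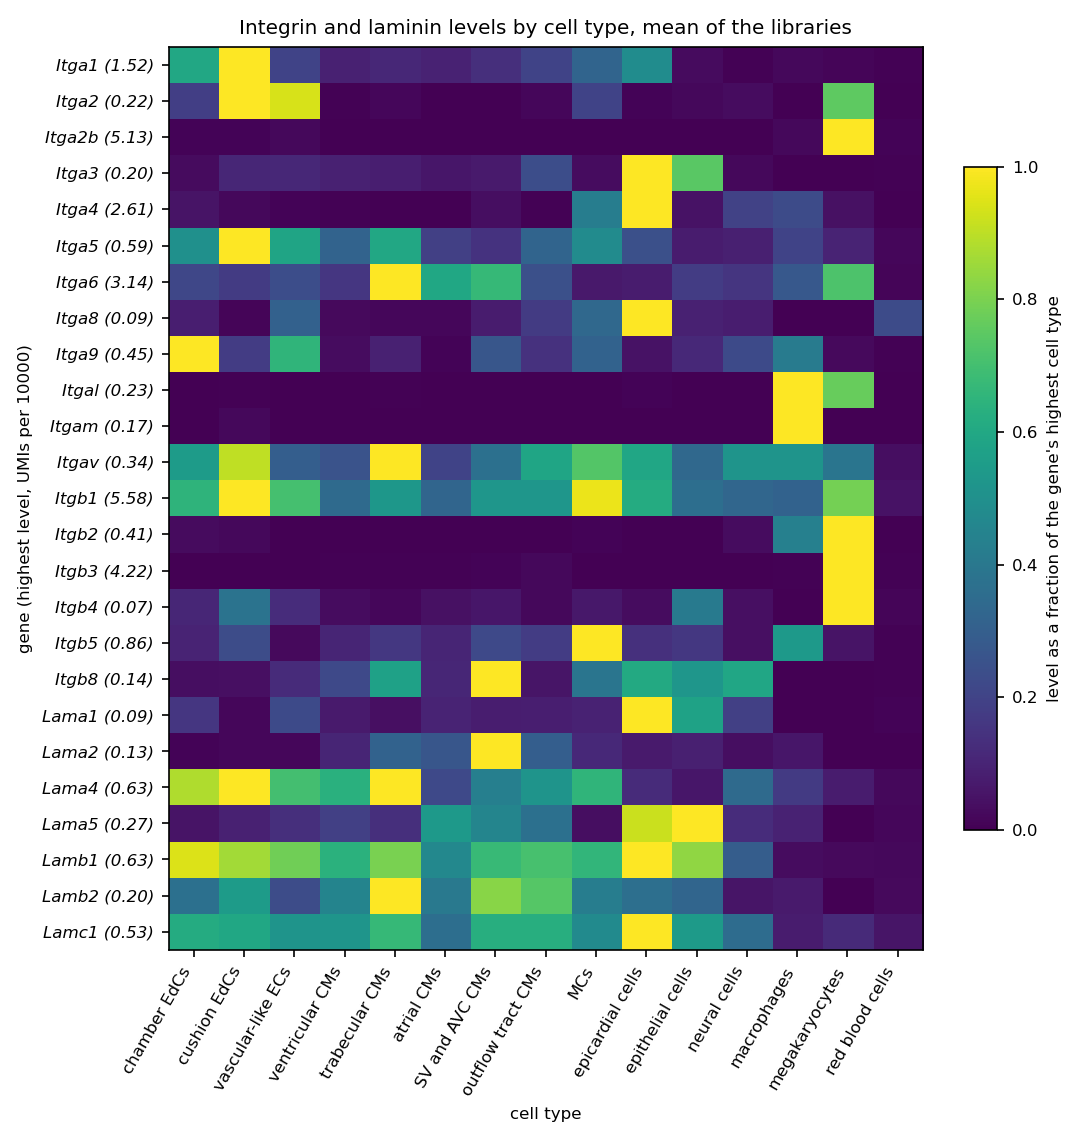
Level of each member (rows, its highest level in UMIs per 10000 in brackets) in each named cell type (columns), as a fraction of that gene's highest cell type and averaged over the libraries. Members under 0.05 UMIs per 10000 everywhere and 1 member not reported here are left out. *Itga1*, *Itga2* and *Itga5* peak in cushion EdCs, *Itga9* in chamber EdCs, *Itga4* in epicardial cells and *Itga6* in CM clusters, whereas *Itgb1* and *Lamb1* are spread over most types. SV and AVC, sinus venosus and atrioventricular canal.

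*Itgb1*, the common beta chain, was found in every cell type. Its mean level was 5.58 in cushion EdCs and 5.42 in MCs, 3.94 in vascular-like ECs, 3.63 in chamber EdCs and 3.43 in epicardial cells, and it ranged from 1.83 in atrial CMs to 2.96 in trabecular CMs. Its level in red blood cells was 0.278. The libraries of cushion EdCs (5.12 to 6.1) and MCs (5.11 to 6.27) overlapped, and those of chamber EdCs (3.09 to 4.44) lay below both. Among the 3 MC clusters the one led by *Postn* and *Tgfbi* was highest, at 6.34, 7.40, 6.89 and 6.06 in libraries 5 to 8.

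The other beta chains were restricted. *Itgb5*, which pairs with *Itgav* to bind vitronectin, was highest in MCs, at 0.899, 1.13, 0.7 and 0.729 in libraries 5 to 8. Macrophages came next, with a mean of 0.464 and a highest library of 0.949 that overlapped MCs. The mean of *Itgb5* was 0.199 in cushion EdCs and 0.0869 in chamber EdCs. *Itgb8*, another partner of *Itgav*, had a low level that peaked in sinus venosus and atrioventricular canal CMs (0.14) and reached 0.0849 in epicardial cells. *Itgb6* and *Itgb4*, which belong to epithelia, had levels of 0.0273 and 0.0296 in epithelial cells. *Itgb4* also gave 0.0719 in megakaryocytes, of which there were 33 cells in all and none in library 7.

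*Itga1*, a receptor for collagens, was highest in the endocardium of the cushions. Its level in cushion EdCs was 1.35, 1.68, 1.65 and 1.40 in libraries 5, 6, 7 and 8, and every library lay above every library of the other named cell types. Chamber EdCs followed with a mean of 0.91, then epicardial cells with 0.742, MCs with 0.491 and outflow tract CMs with 0.307. The chamber EdC libraries (0.658 to 1.2) and the epicardial libraries (0.68 to 0.802) overlapped, so their order is not resolved. Vascular-like ECs had 0.304, and the level in red blood cells was 0.0101. *Itga2*, the collagen receptor whose gene lies next to *Itga1*, was also highest in cushion EdCs (0.22) and next in vascular-like ECs (0.206), with overlapping libraries, and its level in chamber EdCs was 0.0412. *Itga10* and *Itga11*, the remaining collagen receptors, stayed at or under 0.0071 in all named types.

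On mouse build GRCm38, *Itga1* spans chromosome 13 from 114953096 to 115101964 on the minus strand and *Itga2* lies 21 kb away on the same strand. *Pelo* lies inside *Itga1* on the same strand, and reads from the part they share may be assigned to either or to none. *Itgb1* spans chromosome 8 from 128685654 to 128733200. The sequence just before the start of *Itga1*, whose genotype effect is described below, and of *Itgb1*, its beta chain, is shown from RefSeq (GRCm38.p6), with each AGGAAG, a form of the binding site of ETS factors that are active in endothelium, in capitals on either strand.
Itga1, chr13:115101965-115102214, minus strand: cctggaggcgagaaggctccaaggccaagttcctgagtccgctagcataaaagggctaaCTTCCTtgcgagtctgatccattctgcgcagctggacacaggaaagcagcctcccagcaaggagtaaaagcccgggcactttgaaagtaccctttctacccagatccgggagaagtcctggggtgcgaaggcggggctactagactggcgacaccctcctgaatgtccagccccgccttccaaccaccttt
Itgb1, chr8:128685404-128685653, plus strand: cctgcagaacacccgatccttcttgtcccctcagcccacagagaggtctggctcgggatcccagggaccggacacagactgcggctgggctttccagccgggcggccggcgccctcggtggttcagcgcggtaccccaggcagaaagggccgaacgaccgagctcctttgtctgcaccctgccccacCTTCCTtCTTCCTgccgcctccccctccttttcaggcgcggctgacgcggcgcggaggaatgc
The *Itga1* window held 1 match and the *Itgb1* window 2. RefSeq promoters, from 250 bases before to 50 after a start, were matched for 23 of the 35 members. AGGAAG or its reverse was in the promoters of 12 of these 23 members and in 35.4% of the 32851 promoters of all genes. The forkhead site TGTTTAC or its reverse was in none of the member promoters and in 3.65% of all promoters. These are matches of letters only.

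The fibronectin receptors differed in the cell type where they were highest. *Itga4* was highest in epicardial cells in every library, at 2.95, 3.78, 1.80 and 1.92 in libraries 5, 6, 7 and 8. Libraries 5 and 6 were higher than libraries 7 and 8 whatever the genotype. MCs followed with 1.11, 1.22, 1.05 and 1.04, all below the lowest epicardial value, then macrophages (0.595) and neural cells (0.519). In EdCs and CMs *Itga4* was low, with means of 0.139 in chamber EdCs and 0.0515 in cushion EdCs.

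*Itga5*, the main fibronectin receptor chain, was highest in cushion EdCs, and here too libraries differed by pair: the level was 0.747 and 0.763 in libraries 5 and 6 and 0.418 and 0.451 in libraries 7 and 8. Trabecular CMs came next, with a mean of 0.357 and a highest library of 0.43 that overlapped the lowest of cushion EdCs. The mean was 0.299 in chamber EdCs, 0.346 in vascular-like ECs and 0.286 in MCs. *Itga9*, a receptor for tenascin and related ligands, showed the opposite preference within the endocardium. It had a mean of 0.447 in chamber EdCs, from 0.314 to 0.625, and of 0.0792 in cushion EdCs, where no library exceeded 0.108. *Itgav* was found at 0.304 in cushion EdCs and 0.336 in trabecular CMs. *Itga8* was low throughout the named types (0.0943 in epicardial cells). It was higher in 2 unnamed clusters, at 0.236 and 0.263 in libraries 5 and 6 of the cluster led by *Cxcl13*, *Barx1* and *Foxf1*, which held 2 and 3 cells of libraries 7 and 8, and at a mean of 0.156 in the cluster led by *Lhx2*, *Shisa3* and *Hlx*.

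**Figure D2:**
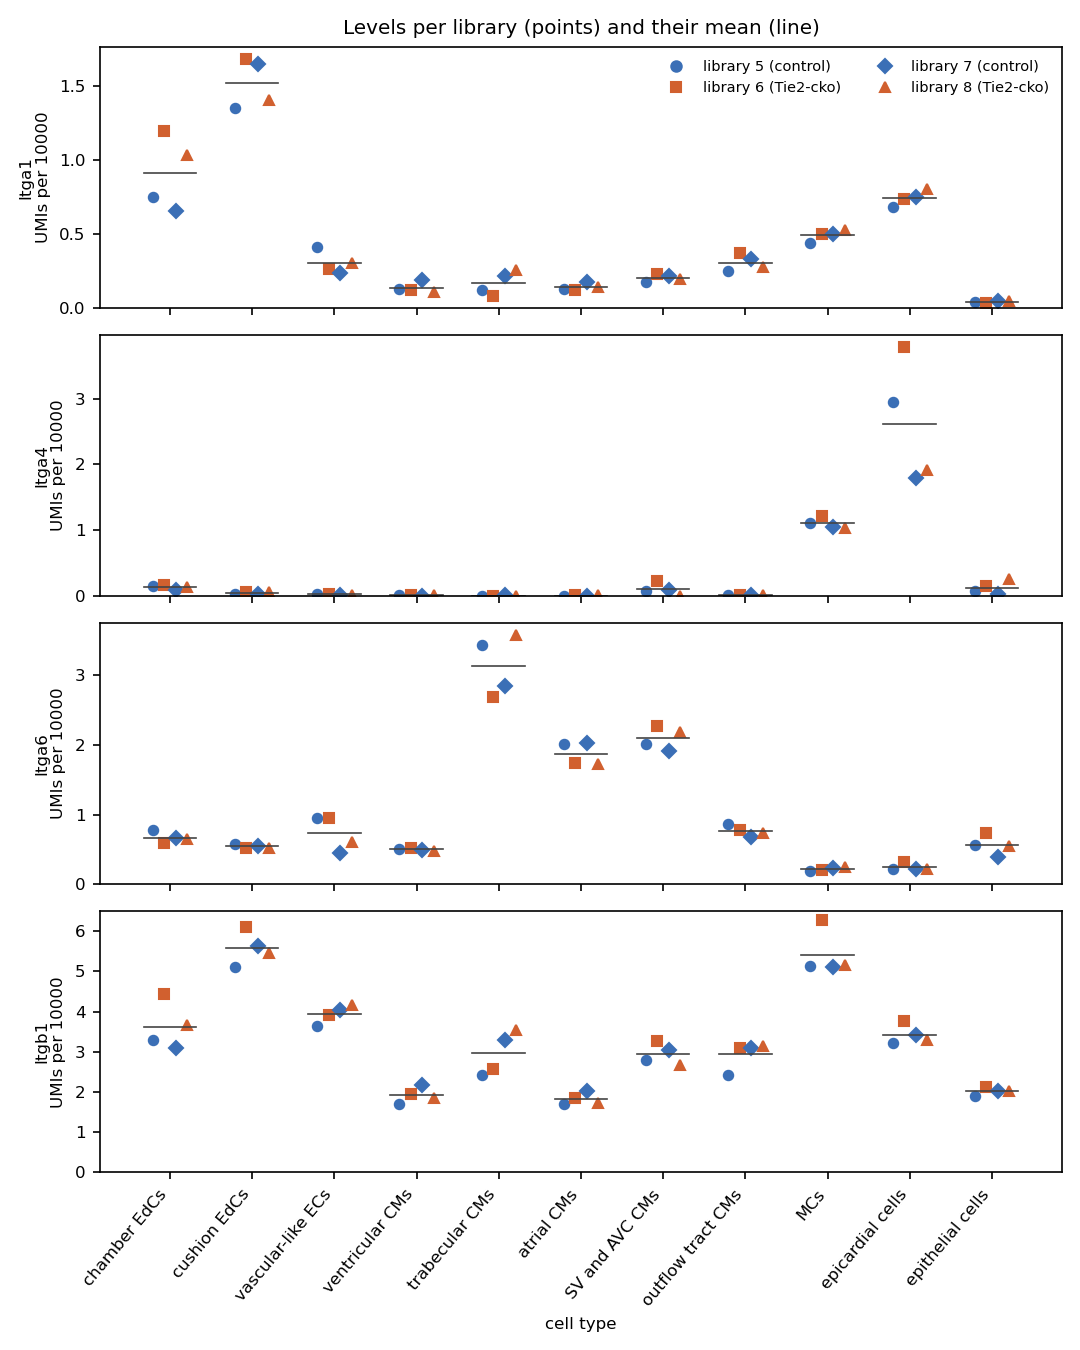
Levels of *Itga1*, *Itga4*, *Itga6* and *Itgb1* (vertical axis, UMIs per 10000, from 0) in each library of 11 cell types (horizontal axis); points are libraries, blue for control and orange for *Tie2-cko*, and lines are their means. *Itga1* shows both *Tie2-cko* points above both control points in chamber EdCs and mixed points in cushion EdCs. *Itga4* in epicardial cells separates libraries 5 and 6 from 7 and 8.

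*Itga6*, a laminin receptor, divided the CMs. Its level was 0.502, 0.524, 0.489 and 0.481 in ventricular CMs of libraries 5 to 8, and 2.02, 1.74, 2.02 and 1.72 in atrial CMs. In sinus venosus and atrioventricular canal CMs it was 2.02, 2.27, 1.91 and 2.19, and in outflow tract CMs 0.862, 0.777, 0.679 and 0.737. The small cluster of 349 trabecular CMs, led by *Nppa*, *Nppb* and *Bmp10*, had the highest mean, with 3.43, 2.69, 2.85 and 3.58. Megakaryocytes overlapped it, with a mean of 2.25 and a highest library at 5.19. The trabecular level depended on the outline of the cluster. The control mean of 3.14 became 1.17 at a finer clustering, where the trabecular name fell to a larger cluster, and 0.666 and 0.685 where presumed doublets or the members were kept in the clustering and the name went to a still larger cluster whose leading genes included *Myl2*. Levels of *Itga5*, *Itgb1* and *Lama4* in trabecular CMs also moved with the outline. At the finer clustering no cluster was named sinus venosus and atrioventricular canal CMs. A cluster led by *Bmp2* and *Gal* was named ventricular there, and 1 led by *Shox2* and *Vsnl1* was named atrial. The control mean of *Itga6* in ventricular CMs was then 1.47 times its value above. Levels given for sinus venosus and atrioventricular canal CMs, those of *Lama2* and *Itgb8* included, have no value at that clustering. In atrial CMs both controls lay above both *Tie2-cko* libraries, a difference in a subset of CMs that was not tested. Endothelial types had means of 0.543 to 0.739, and MCs had 0.218. *Itga3*, the other laminin receptor detected in the heart, was highest in epicardial cells (0.215, 0.206, 0.194 and 0.166) and next in epithelial cells (0.145), and *Itga7*, known from later muscle, had at most 0.0125.

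The laminin alpha chains differed between cell types, also among the CMs. *Lama4*, the chain of endothelial and mesenchymal basement membranes, had a mean level of 0.626 in cushion EdCs, 0.628 in trabecular CMs, 0.554 in chamber EdCs, 0.441 in vascular-like ECs, 0.411 in MCs and 0.397 in ventricular CMs, against 0.138 in atrial CMs and 0.0777 in epicardial cells. *Lama5* ranked the types differently, with 0.265 in epithelial cells, 0.244 in epicardial cells and 0.143 in atrial CMs, against 0.014 in chamber EdCs and 0.00934 in MCs. As a share of the summed laminin alpha levels of a cell type, *Lama4* took 94.1% in chamber EdCs (92.1% to 95.8% over libraries), 93.8% in cushion EdCs and 91.9% in MCs. In ventricular CMs its share was 85%, in atrial CMs 42.5% (40.7% to 45.2%) and in epicardial cells 18% (15.9% to 20.5%). These shares compare the same chain between cell types and are not scaled by gene length.

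*Lama2*, the chain of muscle basement membranes, was highest in sinus venosus and atrioventricular canal CMs, at 0.169, 0.161, 0.0835 and 0.101 in libraries 5 to 8. There it took 24.1% of the summed laminin alpha levels. *Lama1*, the chain of the earliest basement membranes, was highest in epicardial cells (0.0946) and took 22.2% of their summed laminin alpha levels. *Lama3*, a chain of the laminin of skin and other epithelia, had 0.0302 in epithelial cells and 0.00481 in its lowest library there. Its share of their summed laminin alpha levels ran from 1.31% in library 7 to 18.7% in library 6. Epithelial cells pooled 4 clusters in unlike proportions, and 1 of them held 170, 175, 0 and 3 cells of libraries 5 to 8. *Lamb3*, a beta chain of the same laminin as *Lama3*, was found in outflow tract CMs at 0.0459, where *Lama3* had a mean of at most 0.00168 over the CM subtypes.

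**Figure D3:**
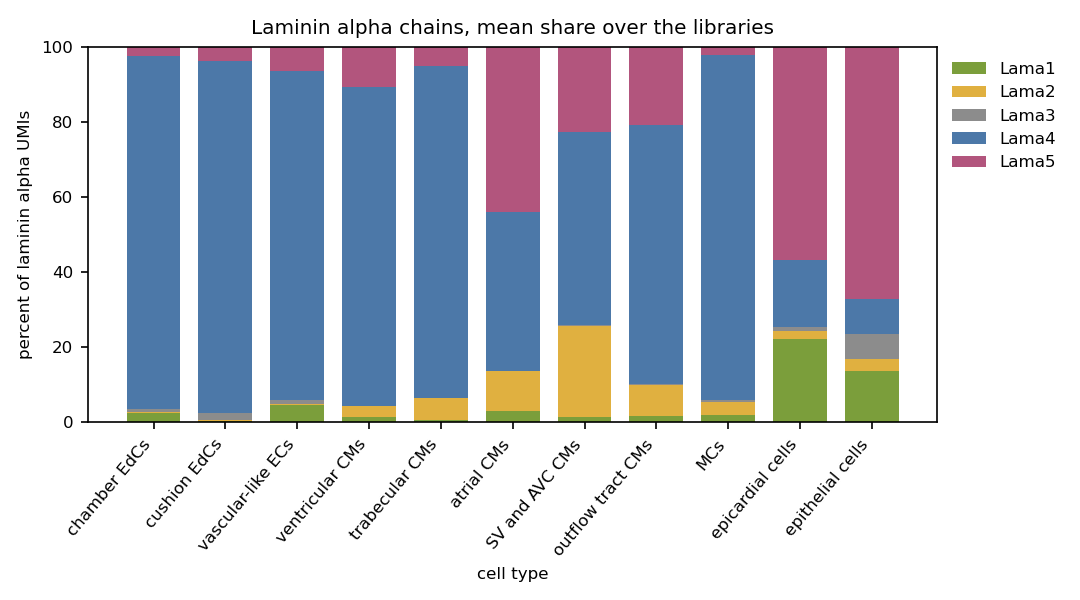
Share of each laminin alpha chain (colours) in the summed laminin alpha levels of each cell type, in percent, as the mean over libraries. Each bar sums to 100. *Lama4* fills 84.96% or more of the bars of EdCs, MCs, ventricular and trabecular CMs. *Lama5* is the largest part in epicardial (56.7%) and epithelial (67.2%) cells, and *Lama2* has its largest share, 24.1%, in SV and AVC CMs.

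The common chains were more even. *Lamb1* ranged from 0.295 in atrial CMs to 0.634 in epicardial cells over the cardiac types, and *Lamc1* from 0.191 to 0.528 in the same 2 types. *Lamb2* peaked in trabecular CMs (0.195) and had 0.107 in cushion EdCs. *Lamc3* was found in epicardial cells (0.04), and its libraries ranged from 0.0346 to 0.0451.

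Among the named types, most integrins of blood cells were highest in megakaryocytes or macrophages. These came from a split of the immune cluster. Another 200, 122, 15 and 13 cells of that cluster in libraries 5 to 8 stayed unnamed and are left out here. Megakaryocytes had 5.13 of *Itga2b*, 4.22 of *Itgb3* and 0.409 of *Itgb2*, as means of the 3 libraries that held such cells. Macrophages had 0.23 of *Itgal*, 0.173 of *Itgam* and 0.178 of *Itgb2*. For *Itgal*, megakaryocytes had 0.176, and the libraries of the 2 types overlapped. In EdCs, CMs, MCs and epicardial cells the mean of *Itgal* was at most 0.00263 and that of *Itgam* at most 0.00367. *Itgax* was near 0 everywhere, with its highest mean, 0.00389, in epicardial cells and 0.00191 in macrophages.

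The comparison of *Tie2-cko* with control asks what loss of TIE2 in the endocardium changes in each cell type. For each library, the UMIs of all cells of 1 type were added up and tested with edgeR's quasi-likelihood test, with p-values adjusted over all genes tested. After a filter on low counts, 16 members were tested in chamber EdCs, 17 in cushion EdCs, 11 in vascular-like ECs, 27 in CMs, 20 in MCs and 21 in epicardial cells. The 10 tested in all 6 types and the 7 tested in none (*Itgal*, *Itgam*, *Itgax*, *Itgb2*, *Itgb6*, *Itgb7* and *Lama3*) were set by level. No member passed an adjusted p of 0.05 in any of the 6 cell types. The share of all genes that passed was 0.00866% in chamber EdCs, 0.0445% in cushion EdCs, 0.0109% in vascular-like ECs, 0% in CMs, 0% in MCs and 0.0335% in epicardial cells. With DESeq2 no member passed either, where 0.182%, 0.0711%, 0.0651%, 0.0128%, 0.0707% and 0.0586% of all genes did. At an unadjusted p of 0.05, 3 members passed in chamber EdCs, 2 in cushion EdCs and 0 in the other 4 types, against 7.17%, 2.16%, 0.901%, 0.435%, 1.02% and 1.13% of all genes in the 6 types in the order above.

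In chamber EdCs *Itga1* was the member with the smallest p. Its level in controls was 0.752 (library 5) and 0.658 (library 7), or 0.705 ± 0.0662 (SD, n = 2), and in *Tie2-cko* 1.2 (library 6) and 1.03 (library 8), or 1.11 ± 0.116 (SD, n = 2). Both *Tie2-cko* libraries lay above both controls. The log2 fold change was 0.64 (SE 0.12), a fold of 1.56, with an adjusted p of 0.291 in edgeR's quasi-likelihood test. Between library 6 and library 5 the fold was 1.61, and between library 8 and library 7 it was also 1.61. The call changed with the fit: the adjusted p was 3.77e-10 with a block for libraries 5 and 6 against 7 and 8, which no source used here pairs, and 0.0153 without the filter on low counts. Of all genes in chamber EdCs, 8.08% passed under that block and 0.924% without the filter.

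The share of chamber EdCs with an *Itga1* UMI followed the same order. Cells thinned to 5500 UMIs each, without the 11 to 42 shallower cells of a library, had a UMI in 28.5% (95% Wilson interval 24.1 to 33.4) and 27.4% (23.8 to 31.2) of cells of the controls and in 42.3% (34.2 to 50.9) and 38.7% (34.2 to 43.3) of cells of *Tie2-cko* (libraries 5, 7, 6 and 8). Without thinning the shares were 52.9%, 71.6%, 44.9% and 54.3% in libraries 5 to 8. In red blood cells, a type that should lack *Itga1*, the thinned share was 0.207% to 2.34%, at median depths of 22810 to 60280 UMIs against 11030 to 27560 in chamber EdCs. The intervals cover counting error only.

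**Figure D4:**
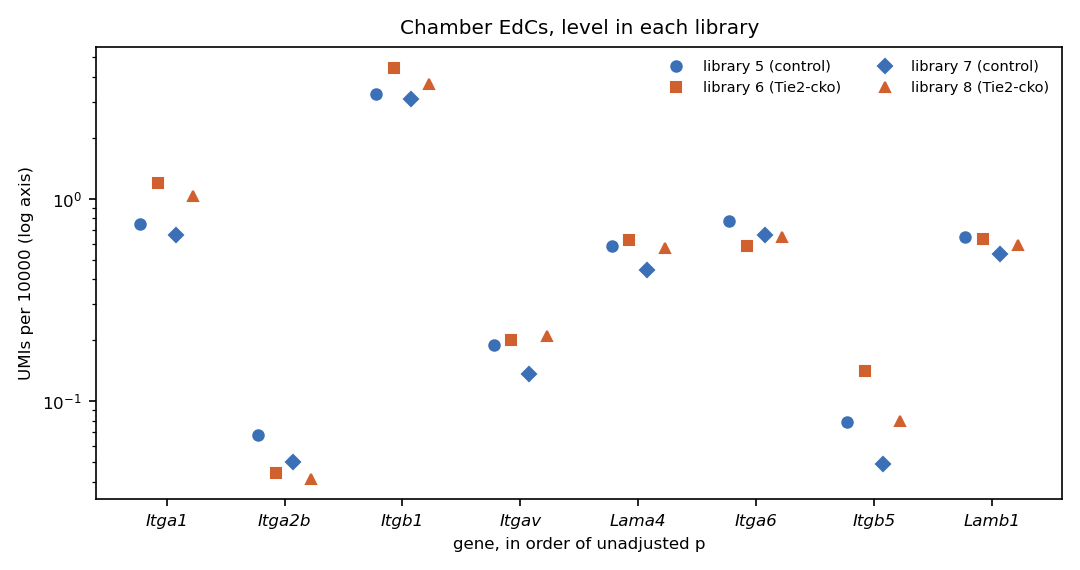
Level in chamber EdCs (vertical log axis, UMIs per 10000) of the 8 members with the smallest unadjusted p in that cell type, in order of p; points are libraries, blue for control and orange for *Tie2-cko*. *Itga1* and *Itgb1* have both *Tie2-cko* points above both controls, and *Itga2b* has both below.

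*Itgb1* moved less. Its level in chamber EdCs was 3.30 and 3.09 in the controls and 4.44 and 3.67 in *Tie2-cko*, with a log2 fold change of 0.30 (SE 0.13), an unadjusted p of 0.0431 and an adjusted p of 0.697 (0.0142 with the block) in edgeR's test. *Itga2b*, the platelet chain, was at 0.068 and 0.0499 in the controls and 0.044 and 0.0414 in *Tie2-cko*, with a log2 fold change of -0.73 (SE 0.27) and an adjusted p of 0.672, on 153 UMIs in all. Red blood cell markers moved beside it: all 7 of 7 were lower in both *Tie2-cko* libraries of chamber EdCs, and their summed level was 36.2 to 85.9 in controls and 13.5 to 14.2 in *Tie2-cko*. *Itga2b* had a level of 0.0455 in red blood cells, and the platelet and megakaryocyte markers, whose cells hold its highest level, summed to 0.0853 to 0.136 in controls and 0.0659 to 0.0707 in *Tie2-cko*. Of these 8 markers, 1 was lower in both *Tie2-cko* libraries, 1 was higher in both and 1 had no UMIs in chamber EdCs. The part of red blood cell or platelet RNA in the difference of *Itga2b* was not tested.

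The next members did not pass an unadjusted p of 0.05. *Itgav* had 0.19 and 0.136 in the controls and 0.2 and 0.21 in *Tie2-cko*, a log2 fold change of 0.34 (SE 0.18). *Lama4* had 0.583 and 0.442 against 0.622 and 0.569, a log2 fold change of 0.21 (SE 0.14). *Itga6*, at 0.771 and 0.659 against 0.586 and 0.643, had a log2 fold change of -0.16 (SE 0.13). *Itgb5* had levels of 0.0791 and 0.0487 against 0.141 and 0.0793, where the lower *Tie2-cko* library lay just above the higher control. By UMIs scaled to library size its genotypes overlapped. *Lamb1* had 0.645 and 0.534 against 0.629 and 0.59, a log2 fold change of 0.13 (SE 0.13). By UMIs scaled to library size, 5 of the 16 tested members had both *Tie2-cko* libraries above both controls, against 24.4% of all genes, and 4 had both below, against 13.4%. The median log2 fold change of the 16 members was 0.07, and that of all 11542 genes was 0.00.

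Markers of other cell types in chamber EdCs were compared in the same way. The 7 cushion EdC markers summed to 2.23 to 2.38 in controls and 2.22 to 2.55 in *Tie2-cko*, which overlap, and *Itga1* is highest in cushion EdCs. The 8 MC markers summed to 1.07 to 1.10 in controls and 1.51 in both *Tie2-cko* libraries, with 4 of 8 higher in both. The mean level of *Itga1* in MCs was 0.491, and the part of MC markers in its difference was not tested. The summed level of the 8 epicardial markers was 0.0757 to 0.146 in controls and 0.112 to 0.139 in *Tie2-cko*. *Pelo*, the gene inside *Itga1*, had a log2 fold change of -0.17 (SE 0.20) in chamber EdCs.

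The genotype effect on *Itga1* differed between cell types. In cushion EdCs its level was 1.35 and 1.65 in the controls, or 1.5 ± 0.209 (SD, n = 2), and 1.68 and 1.40 in *Tie2-cko*, or 1.54 ± 0.196 (SD, n = 2), and the log2 fold change was 0.05 (SE 0.16). In CMs it was 0.152 and 0.217 against 0.17 and 0.161, a log2 fold change of -0.27 (SE 0.20). A test of the difference itself, with both cell types of a library in 1 edgeR model, gave a log2 fold change that was 0.59 (SE 0.11) larger in chamber than in cushion EdCs with an adjusted p of 0.00573. Against CMs it was 0.88 (SE 0.15) larger, with an adjusted p of 0.00785. *Itga1* was the 1 member of 18 tested that passed against cushion EdCs, where 0.816% of all genes passed, and the 1 of 30 that passed against CMs, where 0.558% did. The difference from cushion EdCs rested in part on library 7: without it, the value was 0.38 with an adjusted p of 0.291. The difference from CMs kept its side of the threshold without each library in turn, with values of 0.54 to 1.2.

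**Figure D5:**
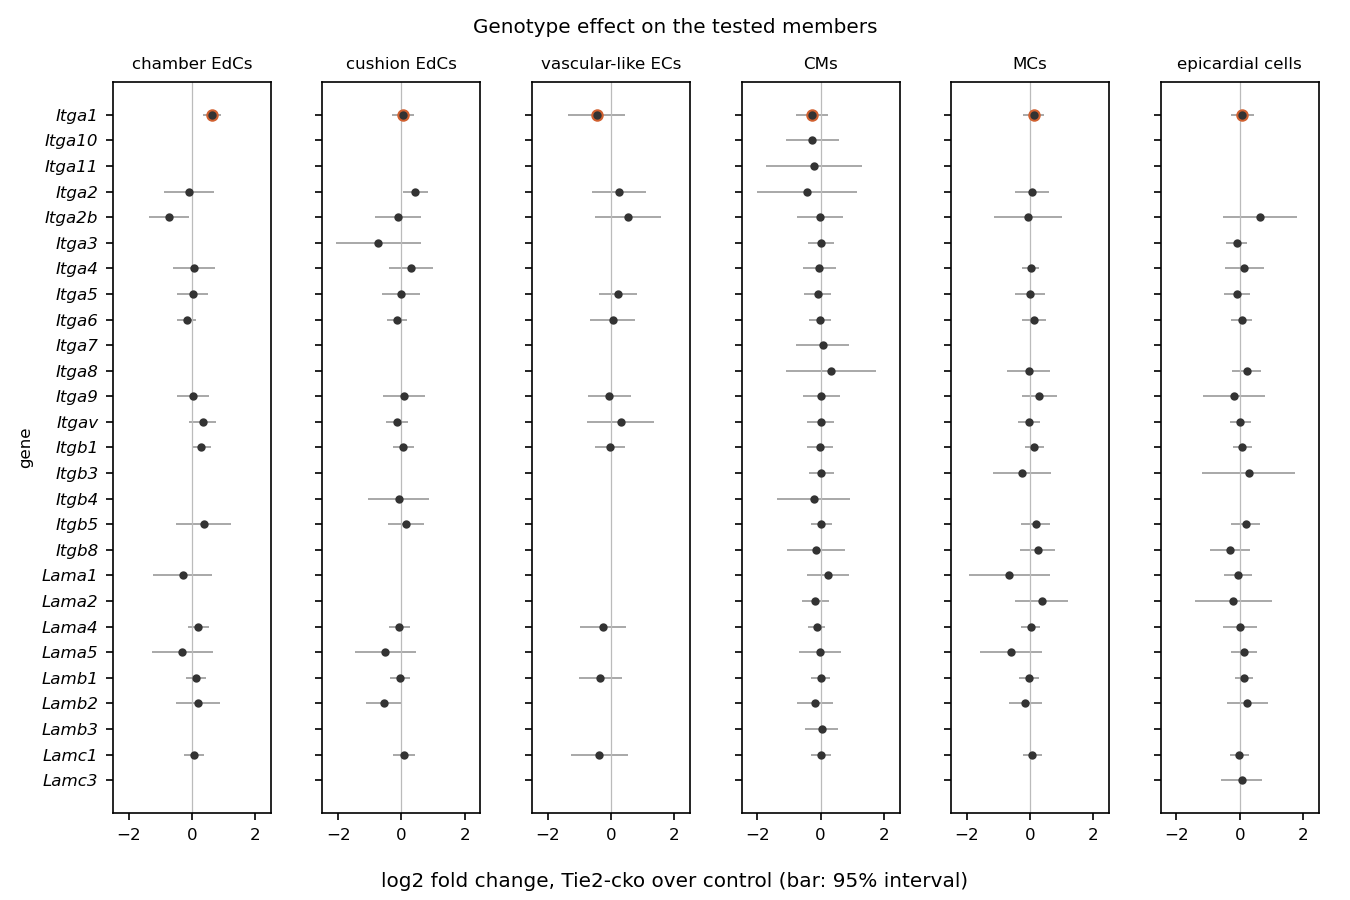
Log2 fold change of *Tie2-cko* over control (horizontal axis) for the members tested (rows, 1 not reported here left out) in each of 6 cell types (panels); bars are 95% intervals, and orange rings mark *Itga1*. *Itga1* lies at 0.64 in chamber EdCs and at 0.05 in cushion EdCs, and most other bars cross 0.

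In the other cell types of the study *Itga1* did not pass. In vascular-like ECs it had 0.412 and 0.233 in controls and 0.265 and 0.306 in *Tie2-cko*, a log2 fold change of -0.46 (SE 0.39) on 219 UMIs. MCs had 0.436 and 0.5 against 0.502 and 0.525 (log2 fold change 0.11, SE 0.14), and epicardial cells had 0.68 and 0.752 against 0.735 and 0.802 (0.08, SE 0.16).

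In cushion EdCs, *Itga2* had 0.19 and 0.185 in controls and 0.272 and 0.232 in *Tie2-cko*, a log2 fold change of 0.44 (SE 0.17) with an unadjusted p of 0.0328 in edgeR's test that did not hold after adjustment. *Lamb2* had 0.14 and 0.113 against 0.078 and 0.0965, a log2 fold change of -0.57 (SE 0.25) with an unadjusted p of 0.0489. *Itga3* had 0.0217 and 0.0304 against 0.00515 and 0.0272 on 40 UMIs in all, and the groups overlapped. Both *Tie2-cko* libraries lay above both controls for 3 of 17 members, against 19.1% of all genes, and below for 2, against 9.83%.

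In vascular-like ECs, *Itga2b* had 0.0459 and 0.055 in controls and 0.195 and 0.151 in *Tie2-cko*, on 58 UMIs (log2 fold change 0.55, SE 0.45). This log2 fold change is from UMIs summed over cells and is smaller than the levels show, whereas a level weighs every cell alike. By summed UMIs the fold was 1.42 between library 6 and library 5 and 1.56 between library 8 and library 7. *Lamb1* had 0.504 and 0.603 against 0.304 and 0.575 (-0.34, SE 0.30). In CMs, *Lama4* had 0.365 and 0.328 against 0.334 and 0.323 (-0.13, SE 0.10), and *Lama2* had 0.045 and 0.0315 against 0.0399 and 0.0344. For *Itgb1* in CMs the 95% interval of the log2 fold change ran from -0.43 to 0.38.

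In MCs, *Lama5* had 0.0126 and 0.0116 in controls and 0.00594 and 0.00714 in *Tie2-cko*, on 48 UMIs (-0.60, SE 0.41). *Itga9* had 0.144 and 0.108 against 0.199 and 0.113, and *Lama1* had 0.0177 and 0.00504 against 0.00865 and 0.00546. In epicardial cells, *Itga2b* had 0.0113 and 0.00546 against 0.0103 and 0.0123 on 39 UMIs, *Itgb8* had 0.0766 and 0.119 against 0.0537 and 0.0905, and *Itga8* had 0.0878 and 0.0879 against 0.122 and 0.0798. None of these 6 passed an unadjusted p of 0.05. *Itga4* in epicardial cells had a log2 fold change of 0.15 (SE 0.27), smaller than the gap between libraries 5 and 6 and libraries 7 and 8.

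Separation of the genotypes was counted in the same way in the other 4 types. In vascular-like ECs 2 of 11 members had both *Tie2-cko* libraries above both controls and 0 had both below, against 16.2% and 9.22% of all genes. In CMs the counts were 2 and 1 of 27, against 11.2% and 6.24%. In MCs they were 6 and 1 of 20, against 17.2% and 7.48%, and in epicardial cells 5 and 0 of 21, against 15.1% and 9.04%. *Itgb1* was among the higher ones in chamber EdCs, MCs and epicardial cells.

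The partners of integrins and laminins were read from 3 lists: 25 adaptors of the focal adhesion, 18 matrix ligands and basement membrane proteins, and 9 other laminin receptors and tetraspanins. No gene of the 3 lists passed an adjusted p of 0.05 in any of the 6 cell types, in either direction. In chamber EdCs, 22, 16 and 8 of them were tested, and their median log2 fold changes were 0.15, 0.11 and 0.17. Among the adaptors, *Fermt3*, the kindlin of blood cells, had a log2 fold change of -1.05 (SE 0.29) and *Tns3*, a tensin, of 0.75 (SE 0.23), with adjusted p of 0.466 and 0.574 in edgeR's test. The summed levels of the red blood cell markers and of the platelet and megakaryocyte markers given above were also lower in chamber EdCs of both *Tie2-cko* libraries. Only 1 of the 8 platelet and megakaryocyte markers was itself lower in both. The part of these markers in the value of *Fermt3* was not tested. Among the ligands, *Thbs1*, thrombospondin, had 1.19 (SE 0.30) and *Fbln2*, fibulin, had 0.60 (SE 0.17), with adjusted p of 0.44 and 0.524. Of the other laminin receptors, *Bcam*, a receptor for *Lama5* laminins, had 0.70 (SE 0.24), and *Dag1*, dystroglycan, had 0.29 (SE 0.16), with adjusted p of 0.634 and 0.765.

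Of the partners, 4 had a genotype effect that differed between chamber and cushion EdCs in the test of the difference, 3 of 16 ligands, 1 of 8 other receptors and 0 of 22 adaptors, where 0.816% of all genes did. Between chamber EdCs and CMs 0 differed, where 0.558% of all genes did. *Thbs1* was at 0.145 and 0.0689 in chamber EdCs of the controls and 0.192 and 0.213 in *Tie2-cko*, and at 1.72 and 1.28 against 1.80 and 1.73 in cushion EdCs. *Fbln2*, itself a marker used to name MCs, was at 0.172 and 0.184 against 0.287 and 0.297 in chamber EdCs and at 1.13 and 1.31 against 1.15 and 1.14 in cushion EdCs. *Col4a1*, the collagen of basement membranes and a ligand of *Itga1*, was at 5.71 and 4.41 against 7.17 and 5.19 in chamber EdCs and at 2.94 and 2.57 against 3.26 and 2.19 in cushion EdCs. *Bcam* was at 0.0762 and 0.0809 against 0.12 and 0.113 in chamber EdCs and at 0.108 and 0.108 against 0.0786 and 0.075 in cushion EdCs. The differences of log2 fold changes, chamber minus cushion, were 0.99 (SE 0.17) for *Thbs1*, 0.68 (SE 0.14) for *Fbln2*, 0.33 (SE 0.07) for *Col4a1* and 1.27 (SE 0.31) for *Bcam*.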

How the data were processed

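Gene UMI counts of the 4 libraries were used as deposited; the authors made these raw counts with Cell Ranger on build mm10, in version 6.1.2 per the file headers (the study's methods name an earlier version), and the annotation release is not given in the sources used here. Cells with at least 500 genes, 1000 UMIs and at most 10% mitochondrial UMIs were kept. Presumed doublets were removed by Scrublet score at 0.8% for each 1000 cells, since its automatic threshold marked 0, 3, 305 and 1 cells in libraries 5 to 8. Libraries held 8877 to 18488 barcodes and 169361996 to 259775540 UMIs, and the depth of a cell limits what is detectable. Cells were clustered in Seurat 5.3.0 (R 4.3.3) at resolution 0.8 without the members, and clusters were named from marker lists. A level is the mean over cells of UMIs per 10000. UMIs summed over each library and cell type were tested with edgeR 4.0.16 (filterByExpr, TMM, quasi-likelihood test, Benjamini-Hochberg adjustment), and the difference between cell types with library as a term. Control and mutant libraries matched for somites within a litter shared a sequencing lane, but which ones is not given in the sources used here. DESeq2 1.42.0, other filters, clusterings and left-out libraries were alternatives. The procedure was tested on simulated counts, where false calls exceeded the nominal rate, most under the block. Named with values in every library were the 8 members of smallest p in chamber EdCs, the 3 in each other cell type, *Itga1*, *Tek*, and the 2 partners of smallest p in each list in chamber EdCs. The members and lists were chosen with earlier results of these data known. Values of 1 member are not reported here.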

Additional observations from a re-analysis of the deposited data

Results flagged for a closer look

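The genotype effect differed between cell types in 6 instances by the test of the difference itself in edgeR, and none was weighed further. Between chamber and cushion EdCs, the difference of log2 fold changes was 0.9896 for *Thbs1* (adjusted p 0.00238), 0.6819 for *Fbln2* (0.0101), 0.5887 for *Itga1* (0.00573), 0.3325 for *Col4a1* (0.0156) and 1.27 for *Bcam* (0.0415). Between chamber EdCs and CMs it was 0.8782 for *Itga1* (0.00785).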

How the results depend on the processing

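No paired analysis was possible because the labels give the 2 genotypes different library numbers and no source used here says which libraries were matched. A block for libraries 5 and 6 against 7 and 8, an assumed pairing, was fitted as an alternative. With it, 2 members passed in chamber EdCs (*Itga1* and *Itgb1*) and 933 of all genes, with 89 genes in cushion EdCs, 29 in vascular-like ECs, 93 in CMs, 86 in MCs and 62 in epicardial cells. Without the filter on low counts, 1 member (*Itga1*) and 169 genes passed in chamber EdCs, 26 in cushion EdCs, 23 in vascular-like ECs and 24 in MCs. With DESeq2, 21, 8, 6, 2, 9 and 7 genes passed in chamber EdCs, cushion EdCs, vascular-like ECs, CMs, MCs and epicardial cells, and 0 members. With the members kept among variable genes, 0 genes passed in cushion EdCs and 3 in vascular-like ECs, where a stricter cell filter also gave 3. Without doublet removal, 0 genes passed in vascular-like ECs and 1 in epicardial cells. The cause of these changes was not tested.

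When 1 library was left out in turn, all genes past the threshold ranged from 87 to 185 in chamber EdCs, 19 to 48 in cushion EdCs, 0 to 64 in vascular-like ECs, 0 to 2 in CMs, 1 to 9 in MCs and 3 to 65 in epicardial cells, with 0 members in each. Members whose effect differed from chamber EdCs ranged from 0 (without library 7) to 2 against cushion EdCs and from 1 to 2 against CMs. The sign of 9 log2 fold changes that did not pass turned: *Itgb5* in chamber EdCs (-0.066 without library 6, -0.043 without library 7, up to 0.90), *Itga9* in MCs (-0.044 to 0.58), *Lama1* in MCs (-1.21 to 0.061), *Tek* in vascular-like ECs (-0.48 to 0.17, 0.020 without library 8) and *Itga1* in vascular-like ECs (-1.09 to 0.047), CMs (-0.52 to 0.051), cushion EdCs (-0.098 to 0.22, -0.053 without library 6), MCs (-0.020 to 0.25) and epicardial cells (-0.094 to 0.23, -0.032 without library 5). Of the log2 fold changes of named genes under all alternatives, 360 kept their sign and side of the threshold. The interaction fits hold library as a term, so the block gave no separate value there.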
